A study of Homo sapiens with 18 samples.

Results

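The H3K27ac peak lists of H2087-LCC cells treated with TGF-β1 were set against those of untreated H2087-LCC cells. All H3K27ac summits of these 3 libraries on chromosomes 1 to 22 and X were members, 181644 summits, where the 13 lists of the series hold 947675 on all chromosomes. Untreated cells (LCC) gave 2 libraries, titled as biological replicates 1 and 2, with 50628 and 62947 summits. Treated cells (TGFb) were profiled in 1 library with 68069 summits, after 4 days in 100 nM TGF-β1 as the labels give the dose. H2087 is a human lung adenocarcinoma line, and LCC is a latency-competent subline of it, so all 3 libraries come from 1 cell line. Both groups share a serum-containing medium with hydrocortisone, insulin, transferrin and epidermal growth factor, and the labels name no vehicle for the untreated cells. The series title names STING and the reactivation of dormant metastasis, and the comparison asks which acetylated sites differ after TGF-β1. H3K4me1 and H3K4me3 lists of both groups, and H3K27ac lists of the subline H2087-LCC-SO1 (SO1) and of H2030, a separate lung adenocarcinoma line, served as readouts outside the comparison.

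H3K27ac is deposited on nucleosomes at active promoters and enhancers, mainly by the acetyltransferases p300 and CBP. H3K4me1 covers enhancers, including ones that are not yet acetylated, and H3K4me3 marks promoters. TGF-β1 binds a receptor kinase pair that phosphorylates SMAD2 and SMAD3, which enter the nucleus with SMAD4, bind DNA beside other factors and recruit p300. In epithelial and carcinoma cells the cytokine is known for arresting growth and for driving the epithelial-mesenchymal transition. Which genes the sites below belong to was not analysed here, so sites are named by hg19 position, and the labelled cell type was not checked against marker genes.

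Each summit is read as a highest point of a peak. Its deposited score is read as a p or q value on the −log10 scale. The main calls used scores only to rank peaks within a list, rank 1 being the highest. An alternative rule kept only scores of at least 10, and some scores are printed beside ranks. A summit was called strong when it was among the first 25000 of its list. A strong TGFb summit was called gained when neither LCC replicate had a summit within 10 kb. A summit that was strong in both LCC replicates was called lost when TGFb had none within 10 kb. Called summits within 10 kb of each other were joined into 1 site. How many summits the caller gave to a wide peak is not known. Because such a peak may hold only 1, a lost or gained summit does not show that H3K27ac was absent. No test was run: with 1 treated library, the difference between the 2 LCC replicates was the only measure of experimental error.

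Strong acetylated sites appeared after TGF-β1 more often than they appeared between the replicates. TGFb had 433 gained sites, made of 448 summits or 1.79% of its strong summits, and 63 lost sites, made of 88 summits or 0.428% of the 20567 LCC summits that were strong in both replicates. Against LCC replicate 1 alone, 1202 strong TGFb sites had no summit within 10 kb (5.04% of strong summits), where LCC replicate 2 had 270 (1.12%), a ratio of 4.45. Against LCC replicate 2 alone, TGFb had 526 such sites (2.19%), where LCC replicate 1 had 115 (0.54%), a ratio of 4.57. With the same rank limit the 2 ratios were 4.15 and 3.12 at 5 kb, and 4.68 and 5.09 at 25 kb. Among the first 10000 summits they were 47.5 and 10.5, and without a rank limit 1.63 and 4.05, so the size of the excess depended on the rank limit and on the replicate.

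The opposite direction gave no clear result. Of the strong sites of LCC replicate 1, 273 had no TGFb summit within 10 kb (1.53% of strong summits), more than the 115 that had no replicate 2 summit. Of the strong sites of LCC replicate 2, 141 had no TGFb summit (0.728%), fewer than the 270 that had no replicate 1 summit. Whether losses exceeded the replicate difference thus depended on the replicate taken.

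**Figure D1:**
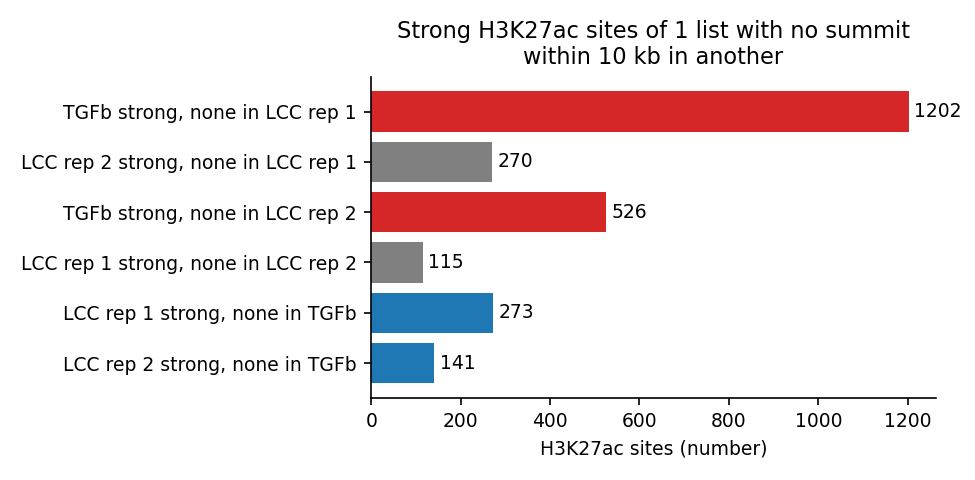
Number of strong H3K27ac sites of each list (bars, each the count of 1 ordered pair of libraries) that had no summit within 10 kb in another list. Red bars are TGFb sites missing from an LCC replicate, grey bars are sites that differ between the LCC replicates and blue bars are LCC sites missing from TGFb. The red bars (1202 and 526) exceed the grey bars beside them (270 and 115), while the blue bars (273 and 141) lie above one grey value and below the other.

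Beside the gains, scores were higher in TGFb than in LCC at the same rank. At rank 25000 the score was 12.8 in LCC replicate 1, 21.6 in replicate 2 and 44.8 in TGFb, and at rank 10000 it was 43.6, 84.5 and 176. Read depth is unknown, and the part of this scale in the gains was not tested. Among the first 10000 summits of each list, 33 sites were gained and 9 were lost. There TGFb had 95 sites without replicate 1 against 2 for replicate 2, and 42 without replicate 2 against 4 for replicate 1. When absence was asked only within 5 kb, these first 10000 gave 46 gained and 60 lost sites, so the balance turned. At 25 kb they gave 16 gained and 1 lost site. Of the 433 gained sites at 10 kb, 33 ranked among the first 10000 and the rest between 10000 and 25000.

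The bulk of the strong sites was common to all 3 libraries. Of the strong TGFb summits, 90.0% had a replicate 1 summit and 93.2% a replicate 2 summit within 1 kb, with median distances of 64 and 60 bp to the nearest summit. Of the strong replicate 2 summits, 95.6% had a replicate 1 summit within 1 kb, and of the strong replicate 1 summits 92.7% had a replicate 2 summit. In lists of equal length, 85.0% (Wilson 95% interval 84.0 to 86.0) of the TGFb summits ranked 10001 to 15000 had a replicate 1 summit within 500 bp, against 88.0% (87.1 to 88.9) of the replicate 2 summits. At ranks 25001 to 30000 the shares lay further apart, at 57.3% (55.9 to 58.7) and 69.2% (67.9 to 70.4). Against replicate 2, TGFb summits of ranks 10001 to 15000 were found more often than those of replicate 1, at 84.2% (83.2 to 85.2) and 81.5% (80.4 to 82.5). The TGFb share lay at or above that of replicate 1 in each bin up to rank 25000, with 73.9% for both at ranks 20001 to 25000. At ranks 45001 to 50000 the order had turned, with 28.2% for TGFb and 38.1% for replicate 1. These and all other intervals cover counting error only.

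**Figure D2:**
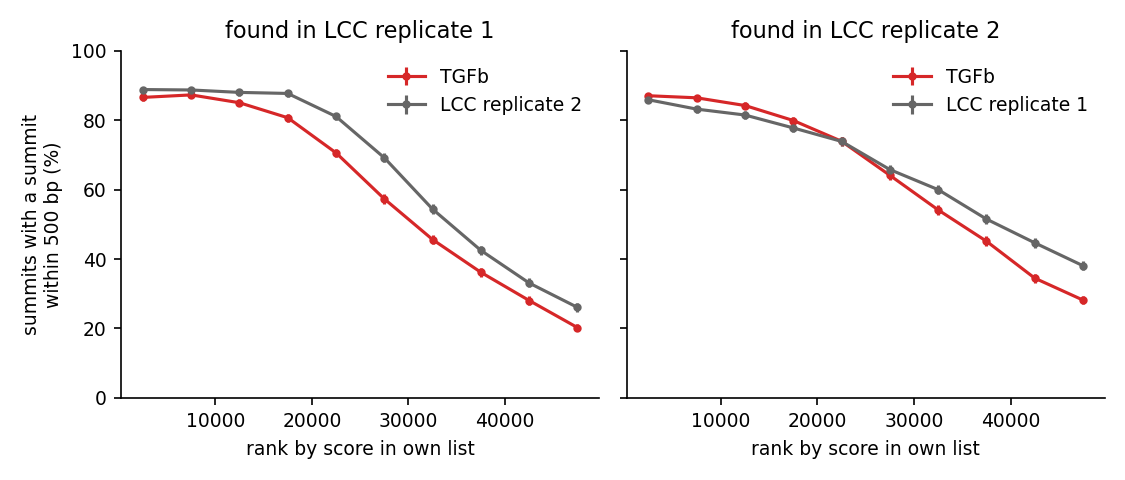
Percent of summits with a summit within 500 bp in LCC replicate 1 (left) or LCC replicate 2 (right), by rank in bins of 5000 in lists cut to 50628 summits. Points are TGFb (red) and the other LCC replicate (grey), and bars are Wilson 95% intervals. TGFb lay below the replicate throughout on the left. On the right it lay at or above it in each bin up to rank 25000 (84.2% and 81.5% at ranks 10001 to 15000). It lay below it in each later bin (28.2% and 38.1% at ranks 45001 to 50000).

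Most gained sites lacked the promoter mark. A TGFb H3K4me3 summit lay within 1 kb of 10.9% of them (8.26 to 14.1; 47 of 433), against 62.1% (61.5 to 62.7) of all strong TGFb summits. The latter were not held to the rule of no LCC summit within 10 kb, and the gained sites had a median rank of 20130. Among the first 10000 summits the H3K4me3 share of gained sites was 24.2%. How much of the low share comes from the rule or the ranks was not tested. Sites that differed between the LCC replicates were also low in this mark, with 32.2% (26.9 to 38.0) for those of replicate 2 missing from replicate 1 and 18.3% (12.3 to 26.3) for those of replicate 1 missing from replicate 2. H3K4me1 without H3K4me3 marked 84.8% (81.1 to 87.8), against 33.3% of all strong TGFb summits. With or without H3K4me3, a TGFb H3K4me1 summit lay within 1 kb of 95.2% (92.7 to 96.8) of the gained sites, 89.3% (85.0 to 92.4) and 81.7% (73.7 to 87.7) of those replicate differences and 78.3% of the kept sites. Of the 47 gained sites with TGFb H3K4me3, 33 had no LCC H3K4me3 summit within 1 kb and 28 had none within 10 kb. These counts used full lists of 28850 summits in TGFb and 26049 in LCC. With both cut to 26049 summits, 14 gained sites carried H3K4me3 in both groups, 22 in TGFb alone and 0 in LCC alone. In the full list, only 7 of the 47 had an H3K4me3 summit above the middle rank. Where a gained site carried H3K4me3, the peak was thus mostly a low-ranking one.

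H3K4me1, measured in separate libraries that took no part in the calls, ranked higher in TGFb at the gained sites. In H3K4me1 lists of equal length (142611 summits), 358 of the 433 gained sites carried the mark in both groups, 54 in TGFb alone, 17 in LCC alone and 4 in neither. Of the 358, 341 ranked higher in TGFb, or 95.3% (92.5 to 97.0), and the median rank went from 63489 in LCC to 22576 in TGFb. At 21846 kept sites, strong TGFb summits with a summit of both LCC replicates within 1 kb, 48.9% (48.1 to 49.7) ranked higher in TGFb, with medians of 22318 and 21981. At the gained sites H3K4me1 thus stood below the kept sites in LCC and at about their level in TGFb. At sites that differed between the LCC replicates, 53.0% (46.6 to 59.4) ranked higher in TGFb where replicate 2 had H3K27ac and replicate 1 had none. Where replicate 1 had it and replicate 2 had none, the share was 28.6% (20.3 to 38.6). LCC had 1 H3K4me1 library, so these shares do not measure replicate error in H3K4me1. The H3K4me1 libraries were single, and their scores at rank 10000, 53.0 in LCC and 48.5 in TGFb, lay much closer than those of H3K27ac.

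The higher H3K4me1 rank was seen in each subset of the gained sites that was examined. It held for 29 of 29 sites among the first 10000 ranks, for 97.2% (93.1 to 98.9) of 144 at ranks 10001 to 20000 and for 93.0% (88.3 to 95.8) of 185 at ranks 20001 to 25000. It held for 96.5% (93.8 to 98.0) of 313 gained sites without TGFb H3K4me3 and for 86.7% (73.8 to 93.7) of 45 with it. At 39 gained sites LCC had no H3K4me1 summit within 10 kb, and TGFb had one within 1 kb at 36 of these, none of which carried TGFb H3K4me3 within 1 kb.

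**Figure D3:**
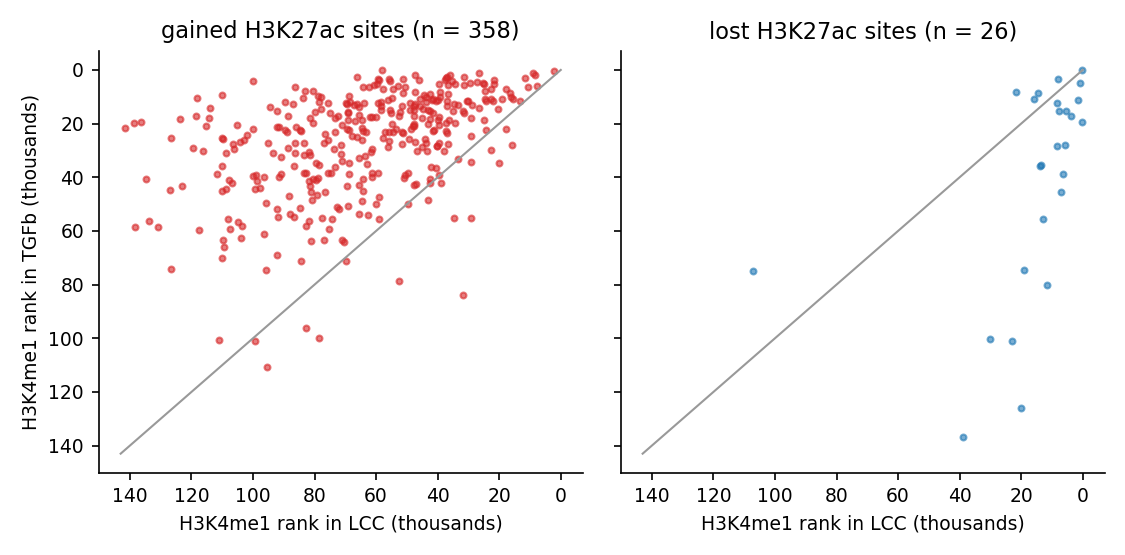
H3K4me1 rank in LCC (x axis) and in TGFb (y axis), in units of 1000 ranks, at gained (left) and lost (right) H3K27ac sites that carry H3K4me1 in both groups. Each point is 1 site, both axes run from weak to strong, and the grey line marks equal rank. Of the 358 gained sites 341 lie above the line, and of the 26 lost sites 20 lie below it.

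The strongest gained site, 17:42665239, had rank 872 in TGFb with a score of 411. The nearest LCC summits lay 11915 bp (replicate 1) and 12014 bp (replicate 2) away, and the highest-ranking one within 50 kb had only rank 17610. H3K4me1 there moved from rank 31493 in LCC to 2741 in TGFb. Neither group had H3K4me3 within 1 kb, and SO1 lacked H3K27ac within 30914 bp, while H2030 had it with rank 10578. This site was thus acetylated in TGFb and in the second cell line, and was not called in the subline.

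The next sites also carried H3K4me1 without H3K4me3. At 5:136805815, rank 1959, H3K4me1 moved from rank 59108 to 3689, and the LCC H3K27ac summits lay 21656 and 20753 bp away. At 10:32702188, rank 2347, H3K4me1 moved from rank 64288 to 6535, with LCC summits 33278 and 31634 bp away. SO1 had a summit at the second with the low rank of 41359, and H2030 one at the first with rank 20081.

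Chromosome 10 held 4 of the 12 highest-ranking gained sites. At 10:49197924, rank 5646, the nearest LCC summits were 240686 and 61637 bp away, and H2030 had a strong summit 10 bp away with rank 4947. Its H3K4me1 moved from rank 138676, near the end of the LCC list, to 19685. At 10:125047216, rank 6086, the LCC summits lay 83402 and 18400 bp away and H3K4me1 moved from rank 109933 to 9278. The site 10:88201545, rank 5554, differed from the others: no list but TGFb had H3K27ac within 30 kb, LCC H3K4me1 was 15277 bp away and TGFb H3K4me1 1074 bp away. It was the only one of the 12 with neither an SO1 nor an H2030 summit within 1 kb.

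Across the 12, the nearest LCC summit of either replicate lay between 11915 and 61637 bp away. H3K4me1 lay within 1 kb in both groups at 11 of the 12 and ranked higher in TGFb at all of these 11. TGFb H3K4me3 lay at 3 of them and LCC H3K4me3 at 0, in full lists of 28850 and 26049 summits. At 12:69799809 and 19:49541816 the TGFb H3K4me3 ranks, 26616 and 26592, lay beyond the length of the LCC list. Within 50 kb, an LCC summit that ranked higher in its list than the gained site in TGFb was found at 2 of the 12, one of them 17:35259420 with an LCC summit of rank 237 at 19142 bp. The other was 12:69799809, with an LCC summit of rank 424 at 46151 bp.

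The remaining sites of the 12 carried values of the same order. At 12:104982994, rank 2404, TGFb had H3K4me3 with a score of 98.0 where LCC had none within 1 kb, and H3K4me1 moved from rank 58298 to 13457. At 20:57117016, rank 6054, SO1 had H3K27ac with a score of 87.8, and H3K4me1 moved from rank 92188 to 15245. At 6:11318246, rank 3938, H2030 had H3K27ac with a score of 28.3, and H3K4me1 moved from rank 31720 to 15379. At 19:49541816, rank 6168, it moved from rank 24481 to 10768 and a TGFb H3K4me3 summit with a score of 5.47 was present.

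Many gained sites were also acetylated in SO1 or H2030, at shares between those of the sites that differed between the LCC replicates. SO1 had a summit within 1 kb of 55.9% (51.2 to 60.5) of the gained sites, against 65.6% (59.7 to 71.0) and 39.1% (30.7 to 48.3) of the sites that differed between LCC replicates, and 94.7% of the kept sites. For H2030 the shares were 33.0% (28.8 to 37.6), 35.2%, 18.3% and 70.5%. SO1 alone of these 2 lists covered 154 gained sites, H2030 alone 55, both 88 and neither 136. H3K4me1 ranked higher in TGFb at 94.0% of 217 gained sites with SO1 H3K27ac and at 97.0% of 135 with no SO1 summit within 10 kb, so the higher rank was seen with and without it.

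**Figure D4:**
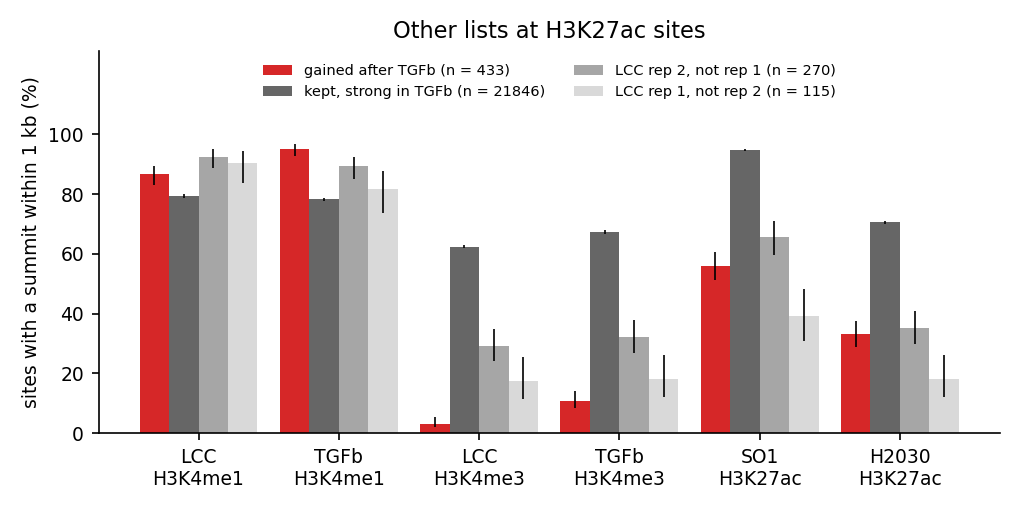
Percent of H3K27ac sites with a summit of another list within 1 kb: H3K4me1 and H3K4me3 of LCC and TGFb, and H3K27ac of SO1 and H2030. Bars are gained sites (red, n = 433), kept sites (dark grey, n = 21846), sites of LCC replicate 2 missing from replicate 1 (mid grey, n = 270) and sites of replicate 1 missing from replicate 2 (light grey, n = 115), with Wilson 95% intervals. Gained sites stood lowest for H3K4me3 (3.23% in LCC, 10.9% in TGFb) and highest for TGFb H3K4me1 (95.2%), where kept sites had 78.3%. Lists were taken at full length, with 26049 H3K4me3 summits in LCC and 28850 in TGFb.

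Gained sites were spread over all 23 chromosomes. Per 100 strong TGFb summits there were between 0.5 on X (0.17 to 1.46) and 2.65 on chromosome 20 (1.70 to 4.10). Chromosomes 8, 4 and 10 followed with 2.64, 2.54 and 2.51, while 22, 17 and 16 had 0.697, 0.838 and 0.88. Many of these intervals overlap, and no order of chromosomes was read from them.

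Runs of at least 3 gained sites spaced within 200 kb were found in 2 places. Summits of a run were counted from 10 kb before its first site to 10 kb after its last. The run at 10:116066870-116106745 had 3 gained sites over 40 kb. With its flanks, TGFb had 11 H3K27ac summits where both LCC replicates and SO1 had 0 and H2030 had 2. H3K4me1 was already present, with 8 LCC and 9 TGFb summits, and at its first site the H3K4me1 rank moved from 78650 to 11915. At 11:36334052-36453240, TGFb had 10 H3K27ac summits where the LCC replicates had 1 and 2, SO1 0 and H2030 5, and both groups had 19 H3K4me1 summits.

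The 63 lost sites fell into 3 kinds, a division made after their values were seen. At 13 of them no H3K4me1 summit of either group lay within 10 kb. Of the other 50, 35 had a TGFb summit within 50 kb that ranked higher than the lost site, and 15 had none. For comparison, an LCC summit that ranked higher lay within 50 kb of 173 of the 433 gained sites. A higher-ranking TGFb summit lay within 50 kb of 57.1% (44.9 to 68.6) of all 63 lost sites. At 19387 kept LCC sites, strong in both replicates with a TGFb summit within 1 kb, the share was 72.5%. That share counts the TGFb summit at the site itself. Such a neighbour was thus not read as particular to the losses.

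Sites with such a neighbour led the losses: 10 of the 12 highest-ranking lost sites had a higher-ranking TGFb summit within 50 kb, one of the 10 being 9:66971221, which lacked H3K4me1. At 6:44026699, with ranks of 1148 in LCC replicate 1 and 531 in replicate 2, the top-ranking summit of the whole TGFb list lay 16187 bp away. At 7:100770051, with ranks of 10172 and 9032, the nearest TGFb summit lay 17191 bp away and one of rank 266 lay 25995 bp away. The H3K4me3 rank there was 12721 in LCC and 8564 in TGFb, and cutting both lists to 26049 summits leaves these ranks as they are. At 11:122027295, with ranks of 919 and 411, a TGFb summit of rank 213 lay 23537 bp away, and H3K4me3 was present in both groups with ranks of 10639 and 10894. Among the 35 sites, H3K4me1 was present in both groups at 17 and ranked lower in TGFb at 11 of these, a share near that of the kept LCC sites given below. Whether a joined peak or less acetylation lies behind these sites was not tested, as the files hold no peak widths.

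The 13 sites without H3K4me1 lay on 7 chromosomes. Their positions were not set against centromeres or repeats. A stretch at 10:42385198-42596987, counted with 10 kb on each side, held 31 summits in LCC replicate 1, 26 in replicate 2 and 0 in TGFb. It held 5 in SO1, 0 in H2030 and no H3K4me1 of either group. The site 2:92325099 joined 5 lost summits, scored 79.7 and 62.2 in the LCC replicates, and had its nearest TGFb H3K27ac summit 104728 bp away. LCC H3K4me3 lay within 1 kb of 12 of the 13 sites and TGFb H3K4me3 of 9, SO1 H3K27ac of 10 and H2030 H3K27ac of 0. These sites were alike in both LCC replicates, and the input libraries were not analysed here.

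At the 15 remaining losses H3K4me1 mostly ranked lower in TGFb as well. Of these, 9 carried H3K4me1 in both groups, and it ranked lower in TGFb at all 9, while 3 carried it in LCC alone, 2 in TGFb alone and 1 in neither. At 3:182869627 the H3K27ac ranks were 8297 and 8030 in the LCC replicates, the nearest TGFb summit lay 33736 bp away, and H3K4me1 moved from rank 8229 to 28355. At 16:55212995 the H3K27ac ranks were 15413 and 8782, the nearest TGFb summit lay 118436 bp away, and H3K4me1 moved from rank 11552 to 80288. At 14:34608059 H3K4me1 was among the strongest of the LCC list, with rank 287, and had rank 19395 in TGFb, while the LCC H3K27ac ranks were 18580 and 21126. The highest-ranking lost site, 1:150551616, also belonged here: it scored 229 and 423 in the LCC replicates, and the best TGFb summit within 50 kb, of rank 239 at 17306 bp, stood just below its own rank of 202. SO1 had H3K27ac within 1 kb of 5 of the 15. Over all 63 lost sites, 20 of the 26 with H3K4me1 in both groups ranked lower in TGFb and 6 higher, or 23.1% higher (11.0 to 42.1). The share ranking higher was 41.4% (40.6 to 42.2) at kept LCC sites, which are strong in both replicates and have a TGFb summit within 1 kb, and 28.6% (20.3 to 38.6) at sites of replicate 1 missing from replicate 2. At sites of replicate 2 missing from replicate 1 it was 53.0% (46.6 to 59.4). The interval of the lost sites held the share of the kept LCC sites and the lower of the replicate shares. No likeness to either was read from it.

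Summits were also counted in blocks of 100 kb, in lists cut to 50628 summits each. A block was called when the TGFb number lay outside both LCC numbers by at least 3 and by more than the replicates differed. Of 16566 blocks, 460 had more summits in TGFb (2.78%) and 356 had fewer (2.15%). The balance depended on the list length: with full lists 1340 blocks had more and 192 fewer, so neither direction was read as a result. At equal length the replicates were the measure. TGFb had at least 3 summits more than replicate 1 in 1006 blocks (6.07%), where replicate 2 had 765 (4.62%), but it had at least 3 more than replicate 2 in 771 (4.65%), where replicate 1 had 794 (4.79%). Replicate 1 had at least 3 more than TGFb in 1219 blocks (7.36%) and replicate 2 in 936 (5.65%), each above the number by which it exceeded the other replicate.

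H3K4me1 moved with the block calls. In 61.1% (56.6 to 65.4) of the 460 blocks with more H3K27ac summits, TGFb also had more H3K4me1 summits than LCC, and in 22.6% it had fewer. Over all blocks the shares were 38.6% and 40.0%. In the 356 blocks with fewer H3K27ac summits, TGFb had more H3K4me1 summits in 32.6% and fewer in 52.2% (47.1 to 57.4).

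The largest increase was at 2:161100001-161200000, with 3 summits in each LCC replicate and 13 in TGFb at equal list length. In the full lists this block held 3, 4 and 20 H3K27ac summits, and H3K4me1 summits numbered 14 in LCC and 30 in TGFb. At 10:116100001-116200000, beside the run of gained sites above, the H3K27ac numbers were 4, 3 and 12, with 18 H3K4me1 summits in both groups. At 6:155300001-155400000 they were 5, 4 and 12, with 23 and 25 H3K4me1 summits. This block and 3 others had a difference of 7, the next in size. At 21:37800001-37900000 the H3K27ac numbers were 1, 1 and 8, with 4 H3K4me1 summits in LCC and 11 in TGFb. At 11:85800001-85900000 they were also 1, 1 and 8, with 8 and 9 H3K4me1 summits. At 10:25100001-25200000 they were 5, 8 and 15, with 15 and 14 H3K4me1 summits. Of these 6 blocks, the LCC replicates differed by at most 1 summit in all but the last, and the H3K4me1 number was at least 7 higher in TGFb in 2.

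Of the 8 blocks with a decrease of at least 8, 5 had 0 TGFb summits and no H3K4me1 of either group, led by 10:42500001-42600000 with 15, 14 and 0 summits. All 5 hold a lost site of the kind without H3K4me1. Among the others, 5:135300001-135400000 had 20 and 17 summits in the LCC replicates and 6 in TGFb. Its H3K4me1 summits numbered 13 in LCC and 19 in TGFb, so the marks moved in opposite directions there. At 1:33800001-33900000 the H3K27ac numbers were 14, 13 and 5, with 27 and 26 H3K4me1 summits. At 10:22900001-23000000 they were 16, 15 and 7, with 23 and 21 H3K4me1 summits. In the full lists 5:135300001-135400000 held 20, 20 and 11 H3K27ac summits. There 1:33800001-33900000 held 14, 19 and 12, and 10:22900001-23000000 held 16, 19 and 14. Both fell short of the difference of 3 needed for a call, so these decreases depended on the list length. A block in which peaks joined could also hold fewer summits, and this was not tested.

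**Figure D5:**
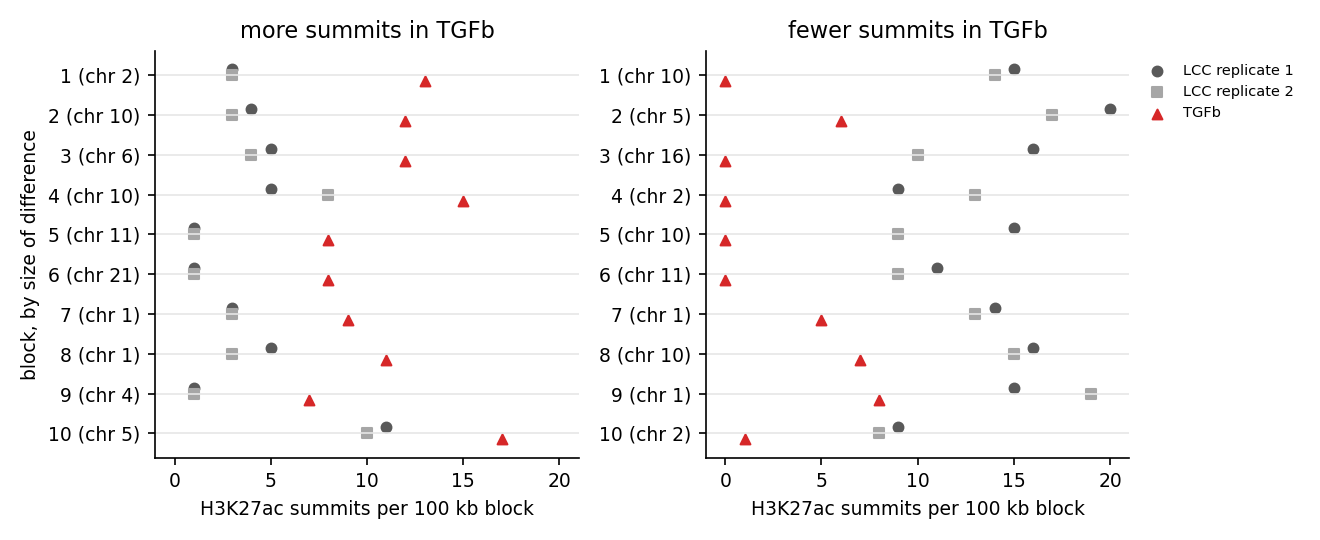
H3K27ac summits per 100 kb block at equal list length in LCC replicate 1 (dark circles), LCC replicate 2 (grey squares) and TGFb (red triangles), for the 10 blocks with the largest increase (left) and the largest decrease (right) in TGFb, in order of size, ties in chromosome order, and named by chromosome; blocks tied with the last ones are not shown. The first block on the left has 3, 3 and 13 summits, and the first on the right has 15, 14 and 0.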

How the data were processed

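ChIP-seq peak summit lists were analysed, and the titles of the samples gave the groups. The submitters' processing notes name Bowtie2, SAMtools, deepTools and hg19. Which caller, control and settings made the lists is not given in the sources used here. The authors' deposited score is read as a −log10 p-value or q-value, called per library, since each list's lowest value lies just above 1.30, the −log10 of 0.05. Summits on other chromosomes, between 35 and 49 in each of the 3 libraries compared, were left out. Calls were made with Python 3.11.15, NumPy 2.4.6 and SciPy 1.17.1. The code of the gain and loss calls was checked on simulated lists with isolated sites added and removed. That check does not measure how often calls near the distance or rank limits are false.

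The sites named are by rule the 12 gained and 12 lost that rank highest, with a lost site taking the poorer of its 2 LCC ranks. The remaining lost sites, the runs and the blocks were picked after their values were seen. The reference tables are of GRCh38, and no coordinates were converted, so the fallback of the design was used: nearest genes, gene lists and sequences were not analysed here, and summit counts per gene were replaced by counts per 100 kb block. The comparison, rules and lists were chosen with earlier results of these data known. Alternatives were other distances, ranks, scores and list lengths, and leaving out each LCC replicate.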

Additional observations from a re-analysis of the deposited data

How the results depend on the processing

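Gained sites outnumbered lost sites under each alternative that changed 1 setting, but the counts moved with the rule. With rank and distance both changed, the balance turned among the first 5000 (12 gained, 34 lost) and the first 10000 summits (46 gained, 60 lost) at 5 kb, and did not turn at 25 kb or without a rank limit. Gained and lost sites numbered 223 and 31 with no summit allowed within 25 kb, 33 and 9 among the first 10000 summits, 6054 and 931 without a strength condition, and 1374 and 184 for scores of at least 10. Lost sites numbered 178 within 5 kb and 126 at equal list lengths. Leaving out 1 LCC replicate gave 526 (without replicate 1) to 1202 (without replicate 2) gained and 141 (without replicate 1) to 273 (without replicate 2) lost sites. Among the first 5000 at 5 kb, TGFb had 29 sites without replicate 2, where replicate 1 had 33. The share of gained sites with a higher H3K4me1 rank was 100% for the first 10000 summits, 77.7% without a strength condition and 86.2% for scores of at least 10, and 86.6% to 93.9% without 1 replicate. The share with H3K4me3 was 24.2% for the first 10000 summits, and 10.5% to 17.8% without 1 replicate. LCC summits were found in TGFb at 63.4% ± 1.36 (SD, n = 2), and at 55.4% within 250 bp, 77.9% within 1000 bp, 72.2% for scores of at least 10 and 61.7% at equal lengths. TGFb summits were found in LCC at 52.5% ± 7.02 (SD, n = 2), and at 60.8% within 1000 bp and 61.2% at equal lengths. Blocks with more and fewer summits numbered 1340 and 192 with full lists and 902 and 47 for scores of at least 10. Without 1 replicate they numbered 771 to 1006 and 936 to 1219, so the balance turned to fewer. The cause was not tested. The block settings, and those of the H3K4 shares, were chosen after seeing the data. The alternatives for gene counts and gene lists were not run, as no genes were assigned. No paired analysis was possible because TGFb has 1 library and no test was run. Read depth is unknown.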
